A study of Mus musculus with 6 samples.

Results

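A set of 10 genes of dendritic cells and Langerhans cells was described in mouse skin: Ly75, Cd207 and Clec10a, which encode receptors for antigen uptake; Itgax, Flt3 and Batf3, which mark or shape the lineage; and Cd83, Cd86, Ccr7 and Fscn1, which go with maturation and migration. The 10 genes were chosen by name, with earlier results of these data known. Their counts set beside the shares of all genes are therefore a description and not a test. All 14 probe sets that carry 1 of these names alone in the platform annotation were taken, of 34945 probe sets with a single gene symbol. For each gene the brightest probe set stood for the gene, so that the 10 genes were 10 of 18193 genes tested. The samples were skin of C3H/HeJ mice, an inbred strain in which alopecia areata, an autoimmune hair loss, can arise spontaneously and which carries a defective Tlr4, the receptor for bacterial lipopolysaccharide. The alopecic group held 3 mice that had developed alopecia areata, with RNA taken from affected skin, and the unaffected group held skin of 3 mice free of it. Each array came from a different mouse, no treatment or engineered allele is named in the labels, and age, sex and body site are not given there.

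Dendritic cells take up antigen, display it on MHC molecules and, once mature, move through lymph vessels to lymph nodes, where they activate T cells. Langerhans cells are the antigen-presenting cells of the epidermis and are marked by langerin, the product of Cd207. In maturing cells co-stimulatory molecules such as CD86 increase, and the chemokine receptor CCR7 directs the cells to the lymph node. Several of the 10 genes are also used by other cells: macrophages can express Itgax, Cd86 and Clec10a, T cells Ccr7, B cells Ly75, Cd83, Cd86 and Ccr7, and endothelial cells Fscn1. In whole skin, fewer cells of a type and less RNA per cell cannot be told apart.

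Ly75 was the 1 gene of the 10 that rose in alopecic skin, and none fell. Over all 18193 genes 0.264% rose and 0.011% fell by the same test, limma with Benjamini-Hochberg adjustment at 0.05. In 6 of the 10 genes (Ly75, Itgax, Cd86, Batf3, Fscn1 and Ccr7) every alopecic array lay above every unaffected array, which was so for 6.93% of all genes. By an unadjusted limma p under 0.05, 5 of the 10 were higher (Ly75, Itgax, Cd86, Batf3 and Fscn1), against 4.8% of all genes, and none was lower. The median log2 difference, alopecic minus unaffected, was 0.72 over the 10 genes, or 1.64-fold, and -0.01 over all genes. Cd207 and Flt3 had differences below 0.

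**Figure D1:**
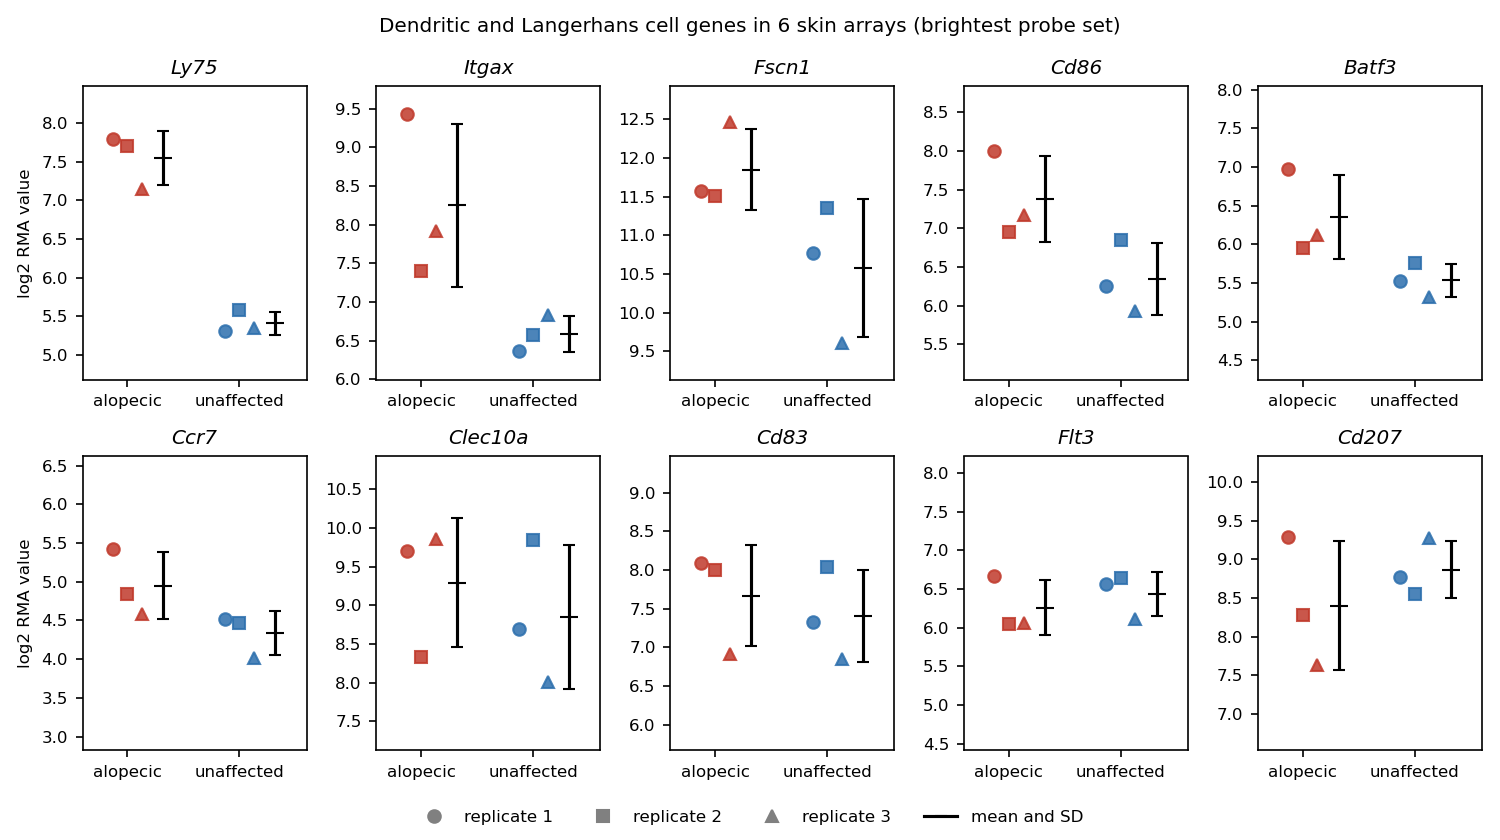
Log2 RMA value (y axis, the same span of units in each panel) of each gene, read from its brightest probe set, in 3 alopecic and 3 unaffected arrays; symbols give the replicate, and bars the mean and SD of the group. The groups are apart in Ly75, Itgax, Fscn1, Cd86, Batf3 and Ccr7, with the widest gap in Ly75, and they overlap in Clec10a, Cd83, Flt3 and Cd207.

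The DNA just before the transcription start is shown for the gene that rose, Ly75, for Itgax, which had the next largest difference, and for Cd207, which had the lowest. Each run holds 250 bases before the start in the direction of transcription, from RefSeq on GRCm38.p6, and capitals mark matches to the motifs named after them. Entries were matched for 6 of the 10 genes.
Ly75, chr2:60383274-60383523, minus strand: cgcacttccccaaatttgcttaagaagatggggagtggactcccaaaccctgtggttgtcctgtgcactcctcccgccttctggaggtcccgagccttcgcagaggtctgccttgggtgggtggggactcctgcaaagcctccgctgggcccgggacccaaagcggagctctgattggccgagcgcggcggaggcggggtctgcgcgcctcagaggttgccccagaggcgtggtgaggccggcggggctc
Itgax, chr7:128129300-128129549, plus strand: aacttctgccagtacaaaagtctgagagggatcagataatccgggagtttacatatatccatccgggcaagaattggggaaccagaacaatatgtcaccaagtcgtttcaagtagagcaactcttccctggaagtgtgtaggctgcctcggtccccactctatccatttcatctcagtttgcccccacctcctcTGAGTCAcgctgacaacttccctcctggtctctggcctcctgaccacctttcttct
Cd207, chr6:83677858-83678107, minus strand: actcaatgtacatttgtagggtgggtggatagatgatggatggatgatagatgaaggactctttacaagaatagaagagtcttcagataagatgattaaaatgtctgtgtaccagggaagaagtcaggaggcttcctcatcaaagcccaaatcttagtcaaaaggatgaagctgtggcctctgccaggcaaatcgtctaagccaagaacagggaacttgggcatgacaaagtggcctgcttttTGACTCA
The search for 4 motifs covered both strands, with overlaps between motifs allowed: GAAANNGAA for the interferon-stimulated response element, GGGANTTTC for NF-kB, TGANTCA for AP-1, and GAGGAAGT for PU.1. The AP-1 letters stood 56 to 50 bases before the start of Itgax and 7 to 1 bases before that of Cd207, and were present in 6.75% of 32851 promoter windows of this length. The letters searched for the interferon-stimulated response element, NF-kB and PU.1 were in 7.13%, 0.941% and 2.44% of all windows and in none of the 6 matched here. No match to any of the 4 motifs was found in the window of Ly75. That window had 66.8% G and C, against 43.6% for Cd207 and a median of 52.4% over all windows. The letters of a motif in a window are a description of the sequence and were not tested as binding sites.

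Of the receptors for antigen uptake Ly75 rose, and neither Cd207 nor Clec10a passed the test. Ly75 encodes DEC-205, an endocytic receptor of dendritic cells and Langerhans cells that carries antigen to processing compartments. Its log2 RMA value was 7.79, 7.70 and 7.15 in alopecic replicates 1, 2 and 3, against 5.31, 5.58 and 5.35 in unaffected replicates 1, 2 and 3. The lowest alopecic array lay 1.57 above the highest unaffected array, and the 3 unaffected arrays lay close together. The mean of Ly75 was 7.55 ± 0.34 over alopecic and 5.41 ± 0.15 over unaffected arrays (SD, n = 3 in both), a log2 difference of 2.14 (SE 0.20, 95% interval 1.64 to 2.63), or 4.39-fold on the RMA scale (limma adjusted p = 0.0267). The unaffected values lay below the median of every array, a range in which RMA differences are compressed, and no detection calls were used. The call of Ly75 depended on single arrays: it was kept without alopecic replicate 3 (adjusted p = 0.0448), and lost without alopecic replicate 1 (0.0894) or 2 (0.13) and without unaffected replicate 1 (0.176), 2 (0.143) or 3 (0.0768). The difference itself stayed between 2.01 and 2.33 in these 6 fits.

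Cd207, the gene of langerin, a marker of Langerhans cells, had a lower mean in alopecic skin and did not pass the test. Its log2 value was 9.29, 8.28 and 7.64 in alopecic replicates 1, 2 and 3, against 8.77, 8.56 and 9.27 in unaffected replicates 1, 2 and 3. Alopecic replicate 1 was as high as the highest unaffected array, and the other alopecic arrays lay below all unaffected arrays. The difference was -0.46 (SE 0.45, 95% interval -1.56 to 0.63, limma adjusted p = 0.875), and it was -0.91 without alopecic replicate 1 and -0.08 without alopecic replicate 3. Clec10a, which encodes a lectin for galactose-type sugars on dermal dendritic cells and macrophages, had 9.70, 8.33 and 9.86 in alopecic and 8.69, 9.85 and 8.002 in unaffected replicates 1 to 3. The groups overlapped across nearly their whole range, and the difference was 0.45 (SE 0.61, 95% interval -1.05 to 1.95, limma adjusted p = 0.911). It was 0.03 without unaffected replicate 3 and 0.95 without unaffected replicate 2.

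Of the lineage genes, Itgax stood higher in alopecic skin without passing the test. Itgax encodes CD11c, the integrin chain by which dendritic cells are usually sorted. Its log2 value was 9.43, 7.41 and 7.91 in alopecic replicates 1, 2 and 3, against 6.37, 6.57 and 6.83 in unaffected replicates 1, 2 and 3. All alopecic arrays were above all unaffected arrays, with alopecic replicate 1 well above the other alopecic arrays. The difference was 1.66 (SE 0.52, 95% interval 0.36 to 2.95), or 3.16-fold (limma adjusted p = 0.578), and it was 1.07 without alopecic replicate 1 and 2.08 without alopecic replicate 2. Batf3, a transcription factor that cross-presenting dendritic cells need for their development, had 6.98, 5.96 and 6.12 in alopecic and 5.53, 5.76 and 5.32 in unaffected replicates 1 to 3. Here too the groups did not overlap and alopecic replicate 1 was the highest array. The difference was 0.82 (SE 0.30, 95% interval 0.09 to 1.55, limma adjusted p = 0.64), and it was 0.50 without alopecic replicate 1. Flt3 encodes the receptor for the growth factor that drives dendritic cell development from progenitors. Its values were 6.66, 6.04 and 6.06 in alopecic and 6.56, 6.64 and 6.11 in unaffected replicates 1 to 3, near the array medians, and the groups overlapped. The difference was -0.18 (SE 0.24, 95% interval -0.77 to 0.40, limma adjusted p = 0.907), and it was -0.39 without alopecic replicate 1 and -0.08 without alopecic replicate 2.

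Among the genes of maturation and migration, Cd86, Fscn1 and Ccr7 stood higher in alopecic skin, again without passing the test. In Cd83 the groups overlapped. Cd86 encodes a ligand of CD28 and CTLA-4 on T cells. It had 8.004, 6.96 and 7.17 in alopecic replicates 1, 2 and 3, against 6.25, 6.85 and 5.93 in unaffected replicates 1, 2 and 3. The groups were apart, but by only a small gap between alopecic replicate 2 and unaffected replicate 2. The difference was 1.03 (SE 0.36, 95% interval 0.15 to 1.92), or 2.05-fold (limma adjusted p = 0.618). A second, dimmer probe set of Cd86 differed by 0.61 (SE 0.42) and its groups overlapped; that difference was 0.14 without alopecic replicate 1 and 0.95 without alopecic replicate 2.

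Fscn1 encodes fascin, an actin-bundling protein of the long processes of mature dendritic cells that several other cell types of skin can also express. Its brightest probe set had 11.58, 11.51 and 12.46 in alopecic replicates 1, 2 and 3, against 10.77, 11.36 and 9.60 in unaffected replicates 1, 2 and 3. Every alopecic array was above every unaffected array, and unaffected replicate 3 was the lowest by more than 1 log2 unit. The difference was 1.27 (SE 0.51, 95% interval 0.02 to 2.52, limma adjusted p = 0.692) and 0.79 without unaffected replicate 3. The 3 other probe sets of Fscn1 differed by 0.65 (SE 0.32), 0.14 (SE 0.16) and 0.05 (SE 0.11). Of these, the first had means of 7.82 in alopecic arrays and 7.16 in unaffected arrays, and both others had means below 5.2 in both groups, which is under every array median.

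Ccr7 encodes the receptor that guides mature dendritic cells and naive T cells to lymph nodes. It was dim throughout, with 5.42, 4.85 and 4.58 in alopecic and 4.52, 4.47 and 4.02 in unaffected replicates 1 to 3. The groups did not overlap, yet all 6 values lay below the lowest array median, and the difference was 0.61 (SE 0.26, 95% interval -0.03 to 1.26, limma adjusted p = 0.735), or 0.38 without alopecic replicate 1. Cd83, a surface protein of mature dendritic cells that holds MHC class II and CD86 at the surface, had 8.09, 8.005 and 6.91 in alopecic and 7.33, 8.04 and 6.85 in unaffected replicates 1 to 3. The groups overlapped and the difference was 0.26 (SE 0.43, 95% interval -0.81 to 1.33, limma adjusted p = 0.924), with -0.02 when unaffected replicate 3 was left out.

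**Figure D2:**
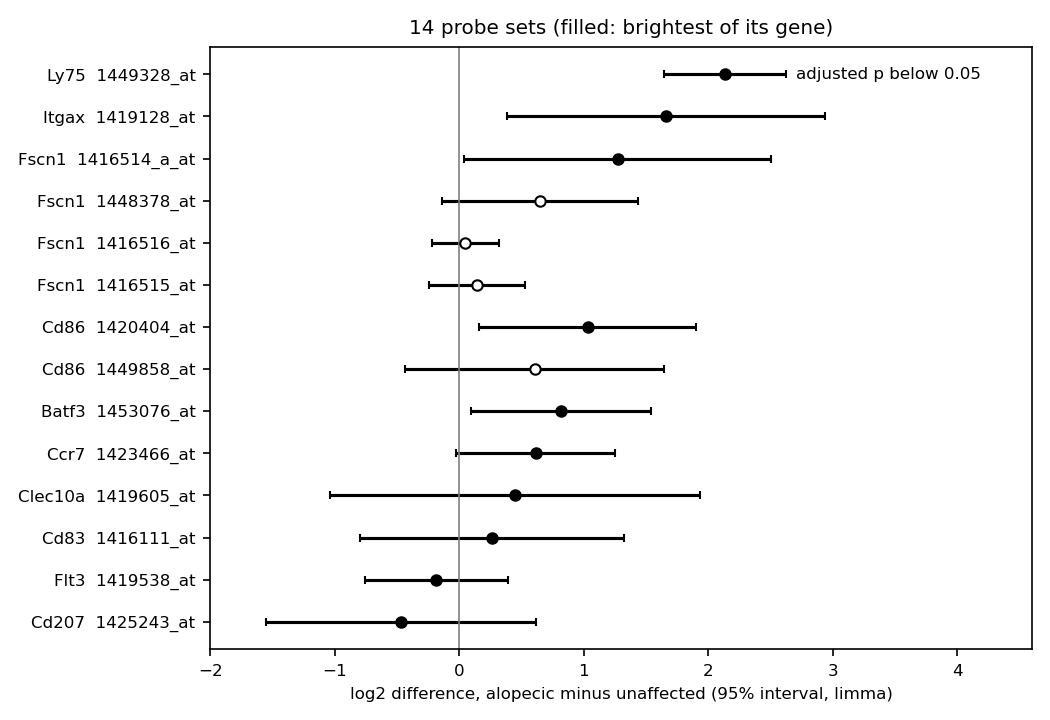
Log2 difference (x axis, alopecic minus unaffected) of the 14 probe sets with the 95% interval of a limma fit over all 34945 probe sets with 1 symbol; filled points mark the brightest probe set of a gene. Ly75 alone passed the test there (adjusted p = 0.0327), 12 of the 14 differences are above 0, and the dimmest probe sets of Fscn1 lie near 0.

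Single arrays bore on the 10 genes unevenly. Alopecic replicate 1 was the highest alopecic array in 8 of the 10 genes, against 33.2% of all genes. It was the lowest in 0, against 44.1% of all genes. Unaffected replicate 3 was the lowest unaffected array in 7 of the 10, against 41.6% of all genes, and unaffected replicate 2 the highest in 7, against 32.5%. Without alopecic replicate 1 the median difference of the 10 genes was 0.44, and without unaffected replicate 3 it was 0.58. The count of the 10 genes with an unadjusted limma p under 0.05, which was 5, was 1 without unaffected replicate 1, 2 without unaffected replicate 3, and 4 or 5 with any other array left out. The genes behind the counts of 5, 1 and 2 were all higher in alopecic skin. Without alopecic replicate 1 the count was 4, with 3 genes higher and Cd207 lower, at -0.91 (SE 0.31). In that fit 8.48% of all genes had such a limma p in either direction, and 6.03% were higher. Of all genes, 4.69% were higher at such a p when unaffected replicate 1 was dropped, and 5.38% when it was replicate 3. With 6 arrays the share was 4.8%. In either direction the shares were 7.29%, 10.1% and 7.15%, in the same order. Whether 1 of 10 or 2 of 10 differs from the share of all genes was not tested. Over all genes, 42.2% of the summed squares around the group means came from unaffected replicate 3, which correlated with the other unaffected arrays at 0.929 and 0.906, against 0.981 between those. Hair follicle markers were low in that array, with a mean log2 level over 11 genes of 6.02, against 12.59 and 13.04 in the other unaffected arrays and 10.92 to 11.98 in alopecic arrays. The part of this array's state in the differences was not tested beyond leaving it out.

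**Figure D3:**
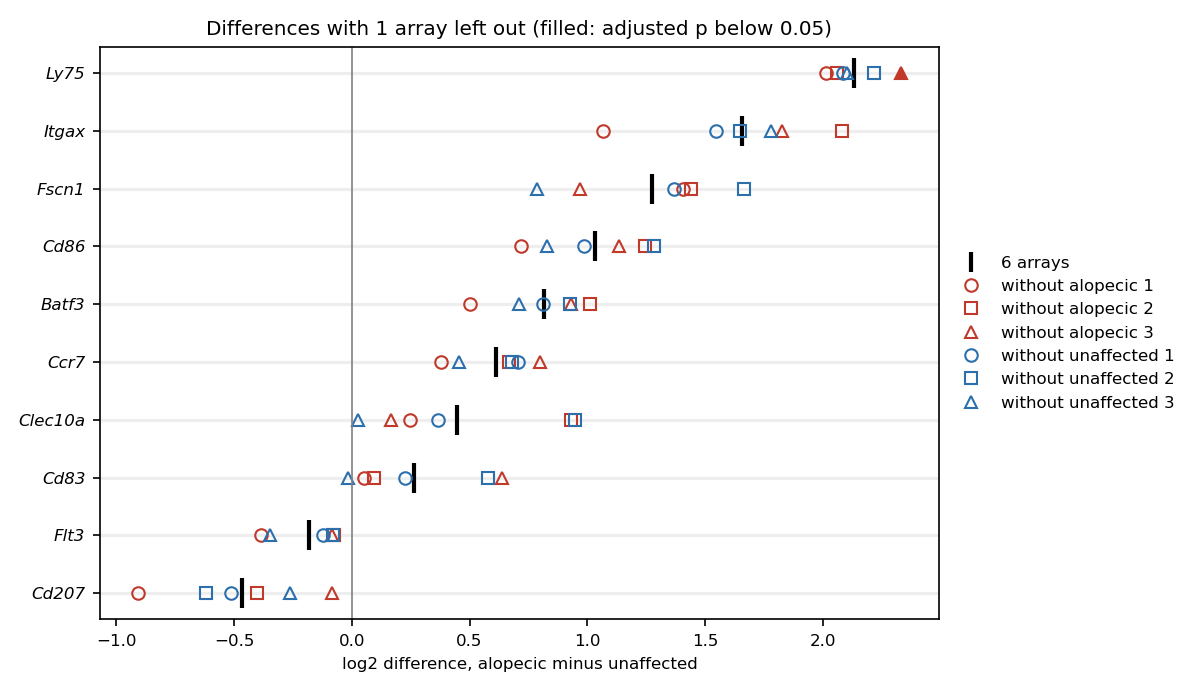
Log2 difference (x axis, alopecic minus unaffected) of each gene over 6 arrays (black bar) and with 1 array left out (symbols); filled symbols passed the limma test. Ly75 stays between 2.01 and 2.33, Itgax runs from 1.07 to 2.08, and Cd83 is the gene whose values lie on both sides of 0.

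The tissue was checked against its markers. Keratinocyte markers had a mean log2 level over 10 genes of 12.46 to 13.07 in alopecic and 12.87 to 13.001 in unaffected arrays, and fibroblast markers over 7 genes of 10.96 to 12.03 in alopecic and 10.77 to 12.04 in unaffected arrays. In neither list did a gene pass the test. By limma's unadjusted p under 0.05, 2 keratinocyte markers were higher and 1 was lower, and 0 fibroblast markers differed. The higher ones were Krt14 and Krt5 and the lower one Krt15, with Krt5 and Krt15 named after their values were seen. Krt14 and Krt10, keratins of the basal and upper epidermis, differed by 0.48 (SE 0.14) and -0.30 (SE 0.33), and the collagen gene Col1a2 and the proteoglycan gene Dcn by -0.09 (SE 0.58) and -0.47 (SE 0.25).

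Other genes of dendritic cell maturation had a median difference of 0.75 over 15 measured genes. None passed the limma test, while 5 were higher and 1 was lower at an unadjusted p under 0.05. The brightest, Marcksl1 and Cd200, differed by 1.28 (SE 0.73) and 0.08 (SE 0.15), and the difference of Marcksl1 was 0.54 without unaffected replicate 3. Cd274, Nfkb2, Cd40, Ccl17, Cd80 and Il4i1 are named after their values were seen. Cd274, the gene of the inhibitory ligand PD-L1, which interferon gamma induces in many cell types, had 10.49, 10.20 and 8.9997 in alopecic and 7.17, 6.79 and 6.52 in unaffected replicates 1 to 3. With no overlap, its difference was 3.07 (SE 0.42, limma adjusted p = 0.0831), and it passed without alopecic replicate 3 (adjusted p = 0.0456). Nfkb2 and Cd40, a NF-kB subunit and a receptor for T cell help, differed by 1.28 (SE 0.21, adjusted p = 0.134, and 0.0287 without unaffected replicate 3) and 0.90 (SE 0.22, adjusted p = 0.411), and Ccl17, a chemokine of skin dendritic cells, by 1.81 (SE 0.64, adjusted p = 0.632, and 1.14 without alopecic replicate 1). Cd80, the other ligand of CD28, differed by -0.05 (SE 0.11) at values of 5.58 to 5.68 in alopecic and 5.59 to 5.79 in unaffected arrays. The 1 lower gene was Il4i1, an amino acid oxidase of antigen-presenting cells, with 4.38, 4.56 and 4.50 in alopecic and 4.89, 5.01 and 4.81 in unaffected replicates 1 to 3. Its groups did not overlap, and its difference was -0.42 (SE 0.11, limma adjusted p = 0.474) at a dim level.

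Genes of cross-presenting dendritic cells, the cells that depend on Batf3, had a median difference of 0.37 over 11 measured genes. By limma 0 passed the test and 3 were higher at an unadjusted p under 0.05. The brightest members, Id2, a transcription factor of this lineage and of other cells, and Cadm1, an adhesion molecule, differed by 0.37 (SE 0.20) and 0.05 (SE 0.29). The 3 higher genes, named after their values were seen, are used by other cells too. Itgae, the gene of the integrin CD103 of cross-presenting dendritic cells and of epithelial T cells, had 10.98, 9.64 and 9.65 in alopecic and 7.27, 7.41 and 7.28 in unaffected replicates 1 to 3, a difference of 2.76 (SE 0.38, adjusted p = 0.0843); without alopecic replicate 1 it was 2.32 and passed (adjusted p = 0.0193). Irf8, a factor of dendritic cell development that interferon gamma also induces, differed by 2.32 (SE 0.34, adjusted p = 0.0997), and Tlr3, a receptor for double-stranded RNA, by 1.35 (SE 0.18, adjusted p = 0.0831). With array weights Itgae, Irf8 and Tlr3 passed (limma adjusted p = 0.0240, 0.0248 and 0.0428), and Itgae passed with dim genes left out (0.0482). Xcr1, the chemokine receptor that defines the cross-presenting type, also named after its values were seen, was dim, at 4.70 to 5.29 in alopecic and 4.46 to 4.81 in unaffected arrays, with a difference of 0.28 (SE 0.20).

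The genes of CD11b+ dendritic cells had a median difference of 0.10 over 10 genes, 5 of them above 0, and by limma none passed at either the adjusted or the unadjusted threshold of 0.05. Leaving out alopecic replicate 1 turned that median to -0.16, and leaving out unaffected replicate 3 turned it to -0.14. Klf4 and Notch2, the brightest, both also expressed by epithelial cells, differed by -0.25 (SE 0.21) and -0.05 (SE 0.26). Genes of Langerhans cell development and upkeep had a median of 0.34 over 12 genes, with 0 past the limma test and 3 higher at an unadjusted p under 0.05, and a median of 0.16 without alopecic replicate 1. The 3 higher genes were Cdh1 and, named after their values were seen, Runx3 and Tgfb1. The brightest were Epcam, an adhesion molecule of Langerhans cells and of epithelium, and Cdh1, the E-cadherin gene, which keratinocytes express as well. Epcam differed by 0.46 (SE 0.31) and Cdh1 by 0.33 (SE 0.09, limma adjusted p = 0.506). Signals to and partners of these cells had a median of 0.37 over 8 measured genes, with 0 past the limma test and 1, Csf2rb, higher at an unadjusted p under 0.05, and leaving out alopecic replicate 1 gave a median of 0.13, or unaffected replicate 3 one of 0.18. Csf2rb, the shared receptor chain for GM-CSF, differed by 0.67 (SE 0.25, adjusted p = 0.644) and the epithelial chemokine Cxcl14 by 0.40 (SE 0.42). The receptors of CD86 were dim: Cd28 differed by -0.02 (SE 0.18) and Ctla4 by 0.35 (SE 0.21). Ligands of FLT3 and CCR7 were not analysed here.

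In the list of plasmacytoid dendritic cells 2 of 10 measured genes rose, and none fell. They were Bst2, a membrane protein that tethers viruses, by 3.29 (SE 0.18, limma adjusted p = 0.00659), and Irf7, a transcription factor of interferon genes, by 2.34 (SE 0.25, adjusted p = 0.0377); both are induced by interferon in many cell types. With 1 array left out, Bst2 lost the call without unaffected replicate 2 (adjusted p = 0.0736) and Irf7 kept it only without alopecic replicate 1 (adjusted p = 0.0414). Siglech, which marks plasmacytoid cells and was likewise picked after its values were seen, had 5.61 to 5.74 in alopecic and 5.77 to 6.25 in unaffected arrays, a difference of -0.34 (SE 0.15, adjusted p = 0.756). The list's median was 0.21 (0.10 if alopecic replicate 1 was left out, 0.04 if unaffected replicate 3 was), and its brightest genes, Ly6d and Tcf4, both of epithelial and other cells as well, differed by 0.40 each (SE 0.29 and 0.18).

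**Figure D4:**
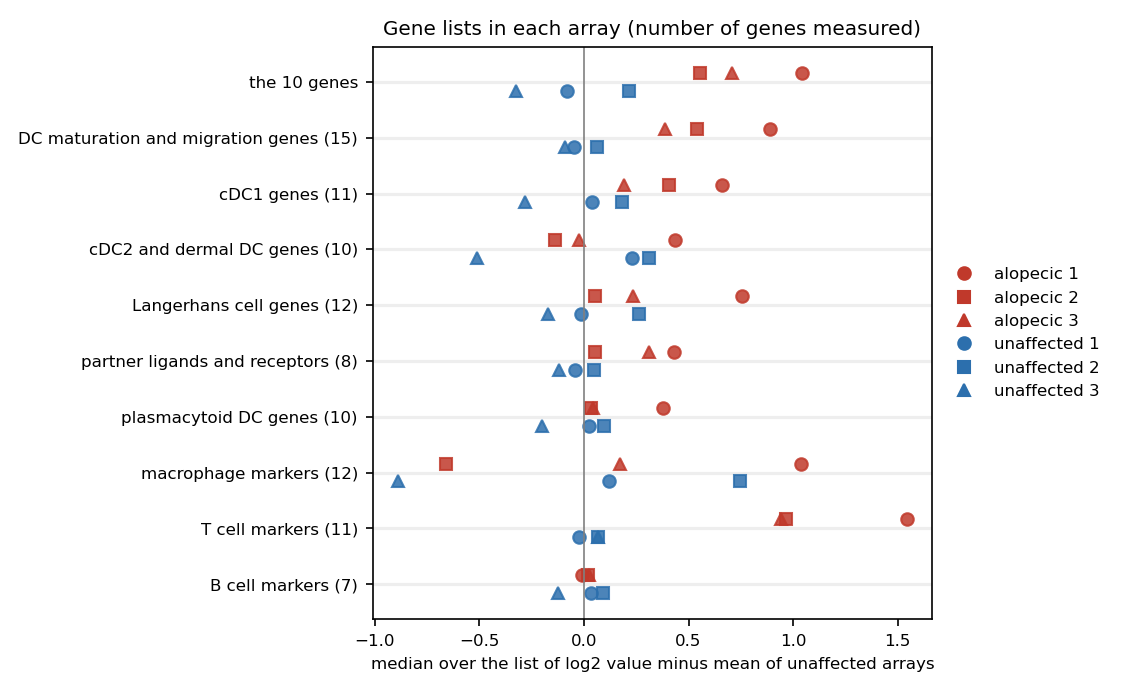
Median over each list of the log2 value minus the gene's mean in unaffected arrays (x axis), 1 symbol per array, for the 10 genes and 9 other lists with the number of genes measured. Alopecic replicate 1 lies furthest right in each list but that of B cells, macrophage markers spread widely in both groups, and the groups are furthest apart in T cell markers, the 10 genes and the genes of maturation and migration.

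Markers of the other cells that share these genes were set beside them. Macrophage markers had a mean log2 level over 12 genes of 9.50, 7.93 and 8.99 in alopecic and 8.62, 9.16 and 7.78 in unaffected replicates 1 to 3. The groups overlapped, with alopecic replicate 2 and unaffected replicate 3 low, as they were for Clec10a. The list's median difference was 0.26, with -0.08 without alopecic replicate 1, -0.07 without unaffected replicate 3 and 0.72 without alopecic replicate 2. By limma none of its genes passed at either the adjusted or the unadjusted threshold; Csf1r, the receptor macrophages and Langerhans cells need, differed by 0.10 (SE 0.41) and the lysozyme gene Lyz2 by 0.35 (SE 0.63). T cell markers had a mean level over 11 genes of 8.29, 7.39 and 7.39 in alopecic and 6.62, 6.61 and 6.63 in unaffected replicates 1 to 3, with a median difference of 1.09. Of these 0 passed the limma test and 8 were higher at an unadjusted p under 0.05, Thy1 at 1.09 (SE 0.37) among them, while Zap70 differed by 0.23 (SE 0.29). As with Itgax, Batf3 and Cd86, alopecic replicate 1 was the highest array. The part of macrophages and T cells in the differences of the 10 genes was not tested.

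B cell markers, by contrast, were near the bottom of the scale in both groups. Their mean level over 7 genes was 4.90 to 5.08 in alopecic and 4.84 to 5.04 in unaffected arrays, and 6 of the 7 lay below the lowest array median in every array; Cd22, at 5.68 to 6.21 in alopecic arrays, was the exception. None passed the limma test at the adjusted or unadjusted threshold, and Cd22 and Fcer2a differed by 0.29 (SE 0.20) and -0.36 (SE 0.25). Endothelial markers had a median difference of -0.22 over 8 genes (0.17 without unaffected replicate 3), with 0 past the limma test and 1 higher and 1 lower at an unadjusted p under 0.05. The higher gene was Flt1, a receptor for vascular growth factor, which differed by 1.59 (SE 0.57). The lower gene was Tek, named after its values were seen. The tight junction gene Cldn5 differed by -0.54 (SE 0.50) and did not pass at the unadjusted threshold.

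The genes whose values over the 6 arrays were most like those of Ly75, by the root mean square difference of log2 values centred on each gene's own mean, were Psmb10, Ube2l6 and Rnf213, at 0.139, 0.189 and 0.192. Psmb10, an immunoproteasome subunit, had 11.12, 10.97 and 10.58 in alopecic and 8.59, 8.58 and 8.48 in unaffected replicates 1 to 3, and rose by 2.34 (SE 0.17, limma adjusted p = 0.013). These genes were picked on the values of the same 6 arrays, so their likeness to Ly75 is a description of that choice. Rnf213, a large ubiquitin ligase, rose by 1.96 (SE 0.20, adjusted p = 0.0338), and Ube2l6, an enzyme that conjugates the interferon-induced modifier ISG15, differed by 2.23 (SE 0.26, adjusted p = 0.0531). With 1 array left out, Psmb10 passed in 3 of 6 fits (adjusted p from 0.0332 to 0.0904) and Rnf213 in 0 of 6 (adjusted p from 0.0538 to 0.208); by limma over the mean of its probe sets Rnf213 differed by 0.88 (adjusted p = 0.339).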

How the data were processed

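The values deposited by the authors are on a log2 scale, 1 for each probe set in each array, made with RMA per the submitters' processing notes; its version, its software and the genome build are not given there. RNA was labelled from the 3' end with biotin, per the labels' protocols. The values, with array medians of 6.11 to 6.17, were used as deposited; an array has no read depth, and 3 arrays per group limit the precision.

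Of 45101 probe sets, 34945 had 1 gene symbol in the platform annotation; 932 with several symbols, 9160 with none and 64 controls were left out. Symbols were updated through RefSeq gene identifiers (GRCm38.p6) for 34741. The brightest probe set by the mean of 6 arrays stood for each of 18193 genes.

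Groups were compared with limma 3.58.1 in R 4.3.3 (lmFit, eBayes, two-sided), with Benjamini-Hochberg adjustment over all genes; errors of differences are standard errors and intervals are 95% and unadjusted. "Rose" and "fell" refer to an adjusted p under 0.05. The fit was run on simulated data with known differences, in which a gene's noise was the same in all arrays. That simulation does not cover an array that deviates as unaffected replicate 3 did. The 10 genes and the lists were chosen with earlier results of these data known. Named from each list were up to 2 genes past the threshold, the 2 brightest and direct partners of the 10 genes. List medians and mean levels carry no test. The 3' minus 5' difference of beta-actin control probe sets was 0.970 ± 0.439 in alopecic and 0.707 ± 0.463 in unaffected arrays (SD, n = 3 each). Alternatives were each array left out, the replicate number as a block, other probe set choices, dim genes left out, quantile normalization, a trended robust variance prior, and array weights. At most 92 values were identical between 2 arrays.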

Additional observations from a re-analysis of the deposited data

How the results depend on the processing

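With each array left out in turn, the number of genes past the limma threshold ran from 4 to 39, against 50 with 6 arrays, that of the 10 genes from 0 to 1, and their median difference from 0.441 to 0.972. Arrays of the 2 groups share only replicate numbers, whose residuals correlated at -0.13, -0.20 and -0.33; with the replicate block 0 genes and 0 of the 10 passed, with 873 genes and 3 of the 10 at an unadjusted limma p under 0.05, and Ly75 kept its difference of 2.14 (adjusted p = 0.219). With dim genes left out 3 of the 10 remained to be tested (Cd207, Fscn1 and Clec10a), by limma 0 of them passed and 1 had an unadjusted p under 0.05, and the median was 0.448, over fewer genes. Array weights gave 139 genes, Ly75 among them, and also Nfkb2, Itgae, Irf8, Tlr3 and Ube2l6 (adjusted p = 0.00937, 0.0240, 0.0248, 0.0428 and 0.0156), which had not passed; Ube2l6 passed too with quantile normalization (0.0460) and the trended robust prior (0.0337), and Cd274 and Itgae with dim genes left out (0.0476 and 0.0482). Over all settings that kept it, the adjusted p of Ly75 ran from 0.0153 to 0.219 and its difference from 2.01 to 2.33. It passed with the mean of probe sets, every probe set on its own, quantile normalization, the trended robust prior and array weights. With the mean of probe sets 3 of the 10 had an unadjusted limma p under 0.05, against 6.69% of all genes. Cd86 and Fscn1 were not among them, at 0.82 (SE 0.38) and 0.53 (SE 0.26). Array weights gave 6 of the 10 at such a p, 5 of them higher, against 16.4% of all genes. The difference of Cd83 ran from -0.0154 (without unaffected replicate 3) to 0.640 (without alopecic replicate 3) and was -0.0811 with array weights; the cause of its change of sign was not tested. The other 9 genes kept their direction in every setting that tested them, and none but Ly75 passed in any. Dim signals limit Ccr7, Batf3, Flt3 and the unaffected values of Ly75. Among the other genes named with values, 8 changed sign in some setting, none of them past the threshold. With single arrays left out the differences ran from -0.184 to 0.281 for Cadm1, from -0.323 to 0.098 for Notch2, from -0.0444 to 0.148 for Cd200, from -0.125 to 0.173 for Cd28, from -0.290 to 0.510 for Csf1r, from -0.170 to 0.885 for Lyz2, from -0.580 to 0.369 for Col1a2 and from -0.087 to 0.017 for Cd80. The mean of probe sets gave -0.0086 for Cadm1, 0.105 for Cd28, 0.474 for Col1a2 and 0.0047 for Cd80, quantile normalization 0.010 for Cd28, and array weights 0.133 for Cd28, -0.036 for Csf1r and 0.018 for Cd80.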
